A study of Capra hircus with 20 samples.

Results

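The nuclear receptor genes other than PPARG were followed over 4 groups of libraries from cultured goat cells, labelled as preadipocytes and adipocytes. The set held 45 genes, matched by official symbol, of the 20587 gene symbols in the mRNA table, and 117 of its 43766 transcripts. The FPKM values of all transcripts of a symbol were summed for each library. FPKM counts fragments per length of transcript, scaled to the mapped fragments of the library, so levels can be set side by side between genes, while a few very abundant transcripts can shift all values of a library.

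Nuclear receptors are transcription factors that bind short DNA elements, many of them as partners of a retinoid X receptor. Most are switched by a small fat-soluble ligand, such as a steroid, thyroid hormone, retinoic acid, vitamin D, an oxysterol or a fatty acid, and others have no known natural ligand. In fat tissue PPARG is the best known member, and receptors for glucocorticoids, retinoic acid, oxysterols and heme are known for roles in preadipocyte commitment, lipid storage and the daily clock.

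The cells came from the longissimus dorsi muscle and the subcutaneous fat of 7-day-old male Jianzhou Daer goats (Capra hircus), and they were used at passage 3 in DMEM/F12 with fetal bovine serum. Intramuscular preadipocytes (IMPA) and subcutaneous preadipocytes (SPA) were harvested at day 0. Intramuscular adipocytes (IMA) and subcutaneous adipocytes (SA) were harvested after 3 days in the same medium with oleic acid, so both adipocyte groups share this single inducer. The study describes no group kept for 3 days without oleic acid, so the inducer cannot be told apart from time in culture. Each group had 5 libraries, numbered 1 to 5 here and listed in that order, and the labels did not tie a number to a goat, so the p-values measure the spread between these cultures.

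The FPKM sum of a library lay between 527426 and 596669 over the mRNA and lncRNA tables, and between 10931 and 11377 gene symbols reached 1 FPKM. The files used here hold no counts and FPKM values keep no read numbers, so no counting interval is given, although the study lists the mapped reads of each library. By its lists, each IMPA library had a larger mapped share of reads and a higher GC content than any IMA, SPA or SA library. Each SA library had a smaller mapped share than any SPA library. The part of these differences in the results was not tested. A 0 cannot be told apart from a level below the depth. The number of mRNA and lncRNA transcripts above 0 was 41397 to 43314 in IMPA and 39184 to 40818 in IMA, without overlap. It was 37271 to 38915 in SPA and 36930 to 38412 in SA, below every intramuscular library. The part of this number in the results was not tested. Skeletal muscle markers, 9 of 10 of which had a row, summed to 3226 to 3701 FPKM in IMPA, 11167 to 11867 in IMA, 6.63 to 22.3 in SPA and 7.39 to 8.92 in SA. MYOD1, a factor that defines muscle cells, was at 0 in every SPA library. MYOG, another muscle marker of the list, averaged 649 FPKM in IMPA, 736 in IMA, 0.124 in SPA and 0.0794 in SA. The 8 of 9 adipocyte markers with a row summed to 11.3 to 12.2 FPKM in IMPA, 11.9 to 13.4 in IMA, 10.8 to 12.2 in SPA and 10.7 to 13.5 in SA, and their score, the mean log2(FPKM + 1), rose by 0.18 in both cell types (two-sided exact permutation p = 0.00794 each). Among them the fatty acid transporter CD36 went from 0.252 to 4.91 FPKM in the intramuscular and from 0.0679 to 0.934 FPKM in the subcutaneous cells, and CEBPA went from 9.23 to 5.42 and from 5.05 to 3.91 FPKM. CD36 was the only adipocyte marker with every IMA library above every IMPA library, and CEBPA the only one with every IMA library below. The other adipocyte markers overlapped between IMPA and IMA. Only CD36 and LPL had every SA library above every SPA library. ADIPOQ, PLIN1 and LEP stayed under 0.60 FPKM in every library. CIDEC averaged 0.334, 0.318, 4.65 and 4.35 FPKM in IMPA, IMA, SPA and SA. In the same order PPARG averaged 0.475, 0.364, 0.624 and 1.03 FPKM, and LPL 1.02, 0.941, 0.549 and 1.34 FPKM. In every IMPA and IMA library the muscle markers summed far above the adipocyte markers. The names preadipocyte and adipocyte are therefore used here as the study's labels only. The study itself took lipid droplets stained with Oil Red O and a lower Pref-1 level as signs of differentiation in both cell types. Summed proliferation markers were 47.1 to 54.0 FPKM in SPA, 249.7 to 280.7 in SA, 121.9 to 153.6 in IMPA and 112.0 to 137.2 in IMA. Summed stromal markers were 1024 to 1459 FPKM in IMPA, 1066 to 1155 in IMA, 6925 to 7221 in SPA and 5224 to 5637 in SA. These markers moved with the groups compared, and their part in the receptor results was not tested. In RNA from whole cultures, fewer cells of a type and less RNA per cell cannot be told apart.

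Receptor genes were spread over a wide range of levels. Over the 20 libraries, 21 of the 45 genes had a mean of at least 1 FPKM, 11 lay between 0.1 and 1 FPKM and 13 lay under 0.1 FPKM. A group mean of at least 1 FPKM was reached by 21 genes in IMPA, 22 in IMA, 21 in SPA and 19 in SA, and 18 genes reached it in all 4 groups. The glucocorticoid receptor gene NR3C1 was the most abundant member in every group, at 28.0 FPKM in IMPA and 75.2 FPKM in SPA. It was followed over all libraries by the oxysterol receptors NR1H3 (18.7 FPKM) and NR1H2 (17.6 FPKM), the heme receptor NR1D2 (15.5 FPKM) and the orphan receptor ESRRA (14.4 FPKM). The genes next to the limit of 1 FPKM were NR2F2 at 1.05 and ESRRG at 0.987 FPKM.

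**Figure D1:**
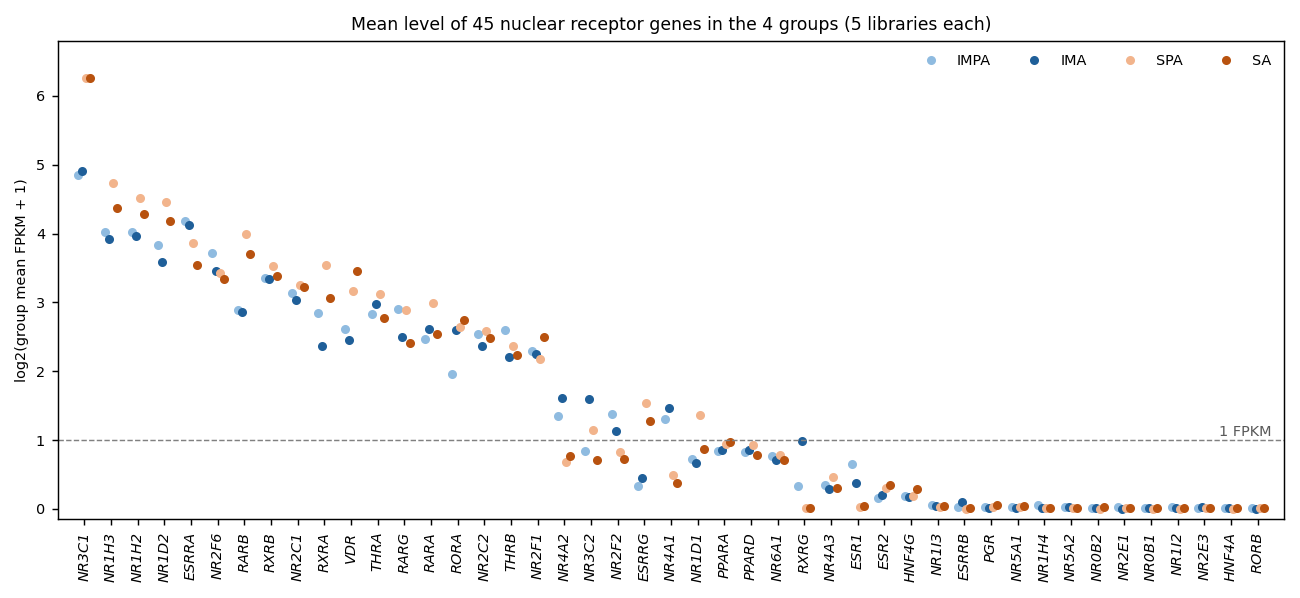
Mean level of each of the 45 receptor genes in IMPA, IMA, SPA and SA (n = 5 libraries a group), on the vertical axis as log2(group mean FPKM + 1), with genes ordered by their mean over the 20 libraries and a dashed line at 1 FPKM. NR3C1 stands above the others in all 4 groups, and 13 genes at the right lie at or near 0.

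The 21 genes with a mean of at least 1 FPKM entered the limma fits over 11432 genes, on log2(FPKM + 1), and a gene was called at an adjusted p under 0.05. Between IMA and IMPA, 8 of the 21 were called, 2 higher and 6 lower in IMA, beside 60.1% of all genes tested (19.9% higher and 40.2% lower). Between SA and SPA, 12 were called, 1 higher and 11 lower in SA, beside 52.1% of all genes (26.1% higher and 26.0% lower). The median log2 change of the 21 genes was -0.064 in the intramuscular and -0.13 in the subcutaneous cells, beside -0.085 and -0.0091 for all genes. The 2 stage comparisons share no library.

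Between the 2 cell types before induction, 18 of the 21 genes were called, 5 higher and 13 lower in IMPA than in SPA, beside 75.1% of all genes (42.3% higher and 32.9% lower). After induction 14 were called, 5 higher and 9 lower in IMA than in SA, beside 72.4% of all genes (29.0% higher and 43.4% lower). At both stages the 5 higher genes include NR2F2 and NR4A2, which reached the minimum of 1 FPKM through their intramuscular groups alone. The difference of the intramuscular and the subcutaneous stage change passed for 10 genes, 8 with the more positive change in the intramuscular cells and 2 with the more negative one, beside 55.3% of all genes (20.7% and 34.6%). The medians of the 21 genes were -0.28 before induction, -0.11 after induction and 0.092 for the difference of stage changes, and those of all genes were 0.055, -0.091 and -0.075. Cell source cannot be told apart from anything else that differed between the preparations. With the library-size covariate of Ballgown in an ordinary linear model, 3, 10, 1, 9 and 5 receptor genes were called in the 5 comparisons in the order given, beside 12.2%, 45.6%, 8.88%, 54.1% and 33.3% of all genes. Between IMPA and SPA, NR3C1 alone stayed called. Between IMA and IMPA, NR1D2 and NR3C2 stayed called and RARA came past the threshold. RXRA, RORA, RARG, THRB, NR2F2 and NR2F6 lost that call (adjusted p = 0.0632 to 0.759). The gene paragraphs below give few of the losses under this model.

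With the minimum lowered to a mean of 0.1 FPKM, 13809 genes and 32 receptor genes were tested. The called receptor genes then numbered 9 for IMA against IMPA, 15 for SA against SPA, 24 for IMPA against SPA, 19 for IMA against SA and 13 for the difference of stage changes. The background shares were 55.7%, 46.8%, 73.6%, 70.6% and 51.8% of all genes. RXRG and ESR1 passed this minimum through their intramuscular groups alone. Both are nevertheless among the genes counted for IMPA against SPA and for IMA against SA. RXRG is also among those counted for IMA against IMPA and for the difference of stage changes. Their depot differences are given as levels, and the RXRG stage changes are given without a p-value. Under the minimum of 1 FPKM, NR2F2 and NR4A2 passed through their intramuscular groups alone, but every group of both lay above 0.1 FPKM. With the lower minimum, 0 calls of the 21 genes were lost and 0 were gained. Values given below for PPARA, PPARD, NR1D1, RXRG, ESR1, ESR2, ESRRG, NR4A1, NR4A3, NR6A1 and HNF4G come from this fit. The log2(FPKM + 1) scale understates the change of such low genes.

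**Figure D2:**
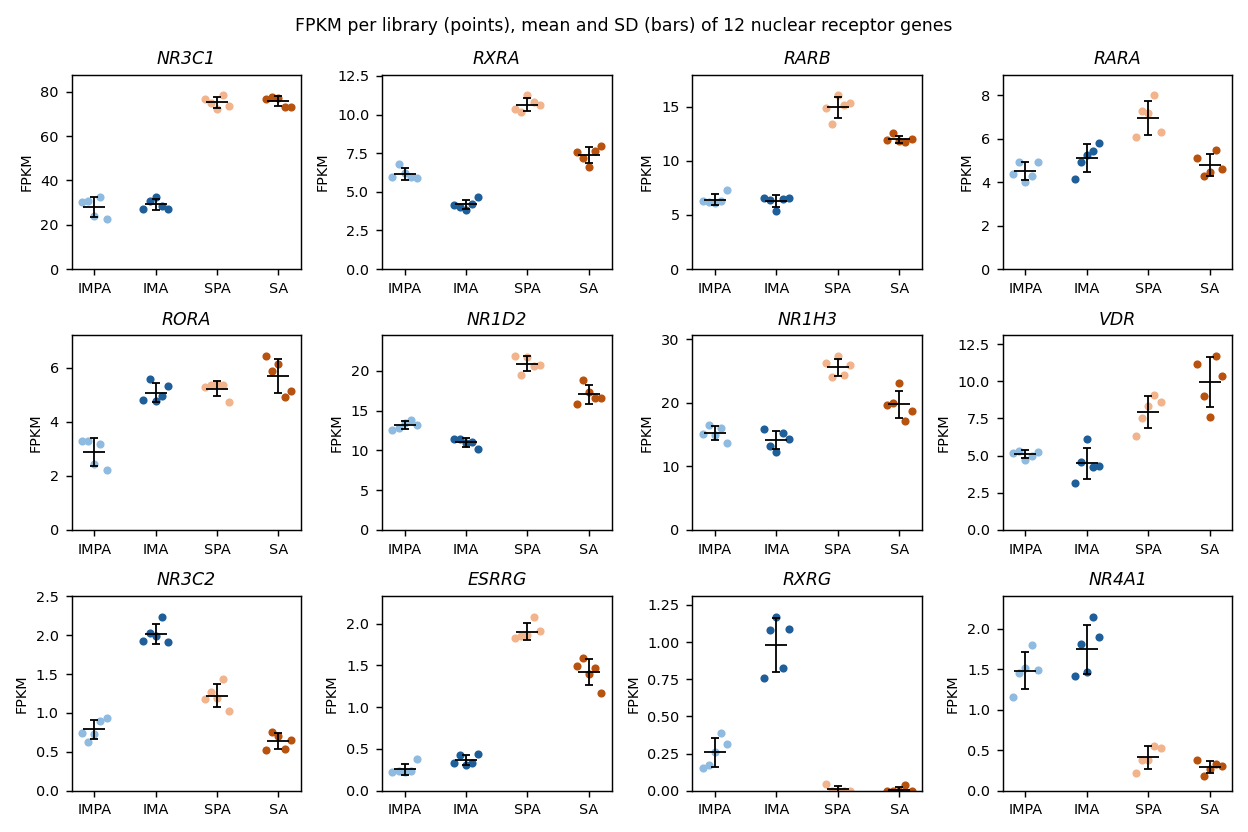
FPKM of 12 receptor genes in each of the 20 libraries (points), with the mean and SD of each group (bars, n = 5). NR3C1 lies between 22.4 and 32.7 FPKM in the intramuscular libraries and between 72.4 and 78.4 FPKM in the subcutaneous ones, and NR3C2 is highest in IMA and lowest in SA.

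The retinoid X receptors, which pair with many other members of the family, were led by RXRB and RXRA. RXRA was 5.97, 6.82, 6.21, 5.93 and 5.88 FPKM in the IMPA libraries and 4.13, 4.05, 3.84, 4.20 and 4.69 FPKM in the IMA libraries. It was 10.4, 10.2, 11.2, 10.8 and 10.6 FPKM in SPA and 7.57, 7.20, 6.60, 7.63 and 7.99 FPKM in SA. Every adipocyte library lay below every preadipocyte library of the same cell type, and every intramuscular library lay below every subcutaneous library of the same stage. RXRA fell in both cell types, with a log2 change of -0.47 ± 0.056 (SE), adjusted p = 2.27e-05 in the intramuscular and -0.47 ± 0.051 (SE), adjusted p = 8.98e-06 in the subcutaneous cells. The 2 changes differed by 0.0052 ± 0.074 (SE), adjusted p = 0.958. Between cell types the log2 difference was -0.70 ± 0.046 (SE), adjusted p = 2.16e-08 before and -0.70 ± 0.061 (SE), adjusted p = 1.25e-07 after induction.

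RXRB held the most even level of the 3 genes, at 9.27 ± 0.525, 9.12 ± 0.515, 10.5 ± 0.387 and 9.48 ± 0.489 FPKM (mean ± SD, n = 5) in IMPA, IMA, SPA and SA. Its log2 change was -0.13 ± 0.044 (SE), adjusted p = 0.0249 in the subcutaneous and -0.020 ± 0.050 (SE), adjusted p = 0.749 in the intramuscular cells. The subcutaneous call was lost without SPA replicate 3 or 5 or SA replicate 1 or 3 (adjusted p = 0.0502 to 0.0675), and it turned to 0.049 on the log2 scale with its more abundant transcript alone (adjusted p = 0.758). RXRB was lower in IMPA than in SPA, with a log2 difference of -0.16 ± 0.044 (SE), adjusted p = 0.00477, a call that was also lost with that transcript alone (adjusted p = 0.823). RXRG, the form known from muscle and brain, was 0.152, 0.174, 0.261, 0.391 and 0.314 FPKM in IMPA and 0.755, 1.08, 1.17, 0.823 and 1.09 FPKM in IMA. It was at 0 in 4 of 5 SPA and 4 of 5 SA libraries, with single values of 0.0467 and 0.0355 FPKM. All IMA libraries lay above all IMPA libraries, and RXRG rose by 0.65 ± 0.072 (SE). No p-value is given, since RXRG passed the minimum through its intramuscular groups alone. All intramuscular libraries lay above all subcutaneous ones. Skeletal muscle markers were also higher in IMA than in IMPA and near 0 in the subcutaneous libraries, and their part in the RXRG result was not tested.

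The retinoic acid receptors RARA, RARB and RARG each followed a pattern of their own. RARB, a receptor whose own gene is a known retinoic acid target, was 6.29, 6.16, 6.07, 6.25 and 7.33 FPKM in IMPA and 6.60, 6.37, 5.32, 6.50 and 6.56 FPKM in IMA. In the subcutaneous cells it was 14.9, 13.4, 16.0, 15.1 and 15.3 FPKM in SPA and 11.9, 12.5, 11.8, 11.7 and 12.02 FPKM in SA. The subcutaneous libraries all lay above the intramuscular ones, with a mean 2.33 times as high before and 1.91 times as high after induction. RARB fell in the subcutaneous cells (-0.29 ± 0.046 (SE), adjusted p = 0.000207) and was not called in the intramuscular cells (-0.030 ± 0.065 (SE), adjusted p = 0.704). The difference between these changes was 0.26 ± 0.080 (SE), adjusted p = 0.00795. The depot log2 differences were -1.10 ± 0.057 (SE), adjusted p = 2.08e-09 before and -0.84 ± 0.057 (SE), adjusted p = 7.07e-09 after induction.

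RARA was 6.09, 7.27, 7.20, 8.01 and 6.31 FPKM in SPA and 5.11, 4.27, 4.49, 5.50 and 4.61 FPKM in SA, without overlap, and it fell by 0.46 ± 0.078 (SE), adjusted p = 0.000361. In the intramuscular cells it was 4.36, 4.95, 4.02, 4.28 and 4.95 FPKM in IMPA and 4.14, 4.92, 5.27, 5.43 and 5.81 FPKM in IMA, with overlap. The intramuscular change was 0.15 ± 0.078 (SE), adjusted p = 0.126, and it passed without IMA replicate 1 (adjusted p = 0.0195), with quantile normalization (adjusted p = 0.0256) or with the more abundant transcript alone (adjusted p = 0.043). The stage changes differed by 0.61 ± 0.11 (SE), adjusted p = 0.000116. RARA was lower in IMPA than in SPA (-0.53 ± 0.073 (SE), adjusted p = 2.61e-05) and did not pass between IMA and SA (0.075 ± 0.080 (SE), adjusted p = 0.417), where its more abundant transcript alone was higher in IMA (log2 difference 0.57, adjusted p = 0.000106). RARG, which lacked a depot difference past the threshold at either stage (adjusted p = 0.985 before and adjusted p = 0.296 after induction), fell in both cell types. It was 7.51, 6.66, 6.17, 6.37 and 5.53 FPKM in IMPA against 4.59, 4.72, 4.29, 5.25 and 4.37 FPKM in IMA, and 6.22, 6.44, 6.07, 7.42 and 6.07 FPKM in SPA against 4.70, 3.77, 3.75, 5.02 and 4.34 FPKM in SA. Neither pair of groups overlapped, and the log2 changes were -0.40 ± 0.071 (SE), adjusted p = 0.000506 and -0.49 ± 0.078 (SE), adjusted p = 0.000218. The subcutaneous call was lost with the more abundant transcript alone (adjusted p = 0.134). The RARG and RARA levels of SA, 4.32 and 4.80 FPKM, were close, whereas RARB reached 11.99 FPKM there.

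The thyroid hormone receptors THRA and THRB bind triiodothyronine, a hormone that raises energy use. THRA was 7.69, 7.93, 7.93, 7.28 and 7.62 FPKM in SPA and 5.92, 5.42, 6.33, 5.60 and 5.99 FPKM in SA, and every SA library lay below every SPA library. It fell in the subcutaneous cells by 0.34 ± 0.048 (SE), adjusted p = 7.45e-05. In the intramuscular cells it was 6.02, 6.44, 5.67, 6.06 and 6.54 FPKM in IMPA and 6.45, 7.25, 5.93, 7.71 and 7.02 FPKM in IMA, with a change of 0.14 ± 0.064 (SE), adjusted p = 0.0867 that passed without IMA replicate 3 (adjusted p = 0.0187) and with upper-quartile scaling (adjusted p = 0.0435) or quantile normalization (adjusted p = 0.0143). The stage changes differed by 0.48 ± 0.079 (SE), adjusted p = 2.72e-05, and the depot difference was -0.28 ± 0.044 (SE), adjusted p = 8.1e-05 before and 0.20 ± 0.066 (SE), adjusted p = 0.0155 after induction, so its sign turned. The IMA and SA libraries overlapped. With the library-size covariate both depot calls were lost (adjusted p = 0.202 before and adjusted p = 0.132 after induction).

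THRB was 5.06, 6.09, 4.33, 5.89 and 3.98 FPKM in IMPA and 3.57, 3.74, 3.67, 3.70 and 3.36 FPKM in IMA. All IMPA libraries lay above all IMA libraries, and THRB fell by 0.38 ± 0.091 (SE), adjusted p = 0.00331, a call that its more abundant transcript alone did not give (adjusted p = 0.126). In SPA and SA it was 4.14 ± 0.314 and 3.72 ± 0.284 FPKM, with a log2 change of -0.12 ± 0.059 (SE), adjusted p = 0.0954 that passed without SPA replicate 1 (adjusted p = 0.0377) or SA replicate 5 (adjusted p = 0.0443). THRB was higher in IMPA than in SPA by 0.23 ± 0.094 (SE), adjusted p = 0.0438. That call was lost under 15 of 23 alternatives. Among them were leaving out any of IMPA replicates 1, 2 and 4 or SPA replicates 1, 2, 4 and 5 (adjusted p = 0.0576 to 0.109), the 3 other scalings (adjusted p = 0.0736 to 0.217), no minimum level (adjusted p = 0.0901) and the more abundant transcript alone (adjusted p = 0.775). Beyond these 15, the library-size covariate did not give the call either, and the difference turned to -1.50 (adjusted p = 0.277). The difference of stage changes was -0.26 ± 0.11 (SE), adjusted p = 0.0536, and it passed without IMPA replicate 3 or 5, SPA replicate 3 or SA replicate 3 (adjusted p = 0.00879 to 0.046). The depots did not differ past the threshold after induction (adjusted p = 0.628).

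The vitamin D receptor gene VDR was higher in the subcutaneous cells at both stages. It was 5.20, 5.33, 4.73, 5.00 and 5.27 FPKM in IMPA and 3.18, 4.58, 6.10, 4.22 and 4.29 FPKM in IMA. It was 6.32, 7.53, 8.34, 9.07 and 8.58 FPKM in SPA and 11.2, 9.02, 7.59, 11.7 and 10.4 FPKM in SA. The stages overlapped within each cell type, and the depots did not overlap within either stage. The log2 difference was -0.55 ± 0.077 (SE), adjusted p = 3.13e-05 before and -1.01 ± 0.13 (SE), adjusted p = 7.5e-06 after induction, and the first was lost with the more abundant transcript alone (adjusted p = 0.69). Within the cell types the changes were -0.18 ± 0.11 (SE), adjusted p = 0.178 in the intramuscular and 0.29 ± 0.11 (SE), adjusted p = 0.0505 in the subcutaneous cells. The intramuscular change passed without IMA replicate 3, the highest IMA library (adjusted p = 0.0115), and the subcutaneous change passed without SA replicate 3 (adjusted p = 0.00852) or SPA replicate 4 (adjusted p = 0.0394). The difference of stage changes was -0.46 ± 0.16 (SE), adjusted p = 0.0213, and it was lost without SPA replicate 1 and SA replicate 5 together (adjusted p = 0.0678) and with the more abundant transcript alone (adjusted p = 0.149).

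The liver X receptors, sensors of oxysterols that raise cholesterol export and fatty acid synthesis, were the most abundant lipid sensors. NR1H3, the form enriched in fat, liver and macrophages, was 15.1, 16.6, 14.9, 16.0 and 13.6 FPKM in IMPA and 15.8, 13.2, 12.3, 15.2 and 14.3 FPKM in IMA. In SPA it was 26.3, 24.1, 27.3, 24.4 and 26.0 FPKM and in SA 19.7, 20.04, 23.1, 17.1 and 18.8 FPKM. NR1H2, the broadly expressed form, was 15.3 ± 0.619, 14.6 ± 1.24, 21.9 ± 0.828 and 18.6 ± 0.606 FPKM in IMPA, IMA, SPA and SA. For both genes every SA library lay below every SPA library, and every subcutaneous library lay above every intramuscular library of the same stage. Both fell in the subcutaneous cells, with log2 changes of -0.36 ± 0.067 (SE), adjusted p = 0.000665 for NR1H3 and -0.23 ± 0.037 (SE), adjusted p = 0.000229 for NR1H2, and the second call was lost with the more abundant transcript alone (adjusted p = 0.064). In the intramuscular cells the changes were -0.10 ± 0.070 (SE), adjusted p = 0.223 and -0.064 ± 0.056 (SE), adjusted p = 0.34.

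The intramuscular levels were lower, with log2 differences of -0.71 ± 0.053 (SE), adjusted p = 8.24e-08 for NR1H3 and -0.50 ± 0.039 (SE), adjusted p = 1.35e-07 for NR1H2 before induction. After induction the differences were -0.45 ± 0.079 (SE), adjusted p = 0.000139 and -0.33 ± 0.055 (SE), adjusted p = 9.5e-05. The differences of stage changes lay near the threshold, at 0.26 ± 0.10 (SE), adjusted p = 0.0324 for NR1H3 and 0.17 ± 0.067 (SE), adjusted p = 0.0411 for NR1H2. For NR1H3 the call was lost without any of IMPA replicates 3 and 5, IMA replicates 1 and 4, SPA replicate 3 or SA replicates 4 and 5 (adjusted p = 0.05 to 0.0677). For NR1H2 it was lost without any of IMPA replicates 1, 3 and 4, IMA replicates 1 and 5, SPA replicates 1, 2, 3 and 5 or SA replicates 1, 4 and 5 (adjusted p = 0.0514 to 0.0829). Both were also lost with no minimum level (adjusted p = 0.0529 for NR1H3 and adjusted p = 0.0517 for NR1H2), and NR1H2 with the more abundant transcript alone (adjusted p = 0.216). The score of 5 macrophage and leukocyte markers was 0.703, 0.898, 1.14 and 1.01 in IMPA, IMA, SPA and SA, rising by 0.20 in the intramuscular and falling by 0.14 in the subcutaneous cells (exact permutation p = 0.00794 each). It came mainly from CD14 and CD68, while PTPRC, CSF1R and AIF1 stayed under 0.081 FPKM in every library, and its part in the NR1H3 result was not tested. The bile acid receptor NR1H4 stayed at or under 0.117 FPKM.

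The fatty acid receptors PPARA and PPARD, relatives of PPARG that drive fatty acid oxidation in liver and muscle, were low. PPARA was 0.791 ± 0.173, 0.807 ± 0.211, 0.919 ± 0.0989 and 0.959 ± 0.166 FPKM in IMPA, IMA, SPA and SA, and PPARD was 0.767 ± 0.154, 0.809 ± 0.160, 0.903 ± 0.240 and 0.713 ± 0.259 FPKM. The groups of both genes overlapped in all 4 comparisons, and no difference passed. The adjusted p-values for the stage were 0.933 and 0.752 for PPARA and 0.716 and 0.291 for PPARD, in the intramuscular and the subcutaneous cells.

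The heme receptors NR1D1 and NR1D2 (REV-ERB alpha and beta) repress clock genes, and the ROR receptors activate through the same DNA element. NR1D2 was 12.5, 12.9, 13.5, 13.8 and 13.2 FPKM in IMPA and 11.5, 11.5, 10.9, 11.0 and 10.2 FPKM in IMA. It was 21.9, 19.5, 21.7, 20.6 and 20.7 FPKM in SPA and 15.8, 18.9, 17.3, 16.6 and 16.6 FPKM in SA. No comparison of 2 groups of the same cell type or the same stage overlapped. NR1D2 fell in both cell types, with log2 changes of -0.24 ± 0.044 (SE), adjusted p = 0.000544 in the intramuscular and -0.28 ± 0.049 (SE), adjusted p = 0.000479 in the subcutaneous cells, and these changes differed by 0.039 ± 0.065 (SE), adjusted p = 0.637. It was lower in the intramuscular cells, with log2 differences of -0.63 ± 0.041 (SE), adjusted p = 2.1e-08 before and -0.59 ± 0.053 (SE), adjusted p = 1.87e-07 after induction.

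NR1D1 was far lower, at 1.52, 1.62, 1.40, 1.58 and 1.71 FPKM in SPA and 1.03, 0.754, 0.690, 0.794 and 0.906 FPKM in SA. All SA libraries lay below all SPA libraries, and NR1D1 fell by 0.48 ± 0.055 (SE), adjusted p = 2.62e-05. In IMPA and IMA it was 0.645 ± 0.131 and 0.586 ± 0.0460 FPKM, with a change of -0.050 ± 0.054 (SE), adjusted p = 0.455, and the stage changes differed by 0.43 ± 0.079 (SE), adjusted p = 0.000103. RORA was 3.27, 3.28, 2.44, 3.19 and 2.21 FPKM in IMPA and 4.79, 5.57, 4.75, 4.95 and 5.33 FPKM in IMA. Every IMA library lay above every IMPA library, and RORA rose by 0.66 ± 0.087 (SE), adjusted p = 5.32e-05. In SPA and SA it was 5.22 ± 0.282 and 5.69 ± 0.642 FPKM, a change of 0.10 ± 0.068 (SE), adjusted p = 0.227. The stage changes differed by 0.55 ± 0.11 (SE), adjusted p = 0.00029. RORA was lower in IMPA than in SPA (-0.69 ± 0.084 (SE), adjusted p = 8.44e-06), and IMA and SA did not differ past the threshold (-0.14 ± 0.070 (SE), adjusted p = 0.0983) except without SA replicate 4 (adjusted p = 0.0344). RORB stayed at or under 0.0160 FPKM.

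Among the steroid receptors, NR3C1, which binds cortisol, was set apart by cell type and not by stage. It was 30.1, 30.6, 24.1, 32.7 and 22.4 FPKM in IMPA and 27.0, 30.8, 32.6, 28.4 and 27.0 FPKM in IMA. It was 76.9, 75.0, 72.4, 78.4 and 73.4 FPKM in SPA and 76.7, 77.9, 77.2, 73.1 and 73.3 FPKM in SA. The lowest subcutaneous library lay above the highest intramuscular one, and the stages overlapped in both cell types. The SPA mean was 2.69 times the IMPA mean and the SA mean 2.59 times the IMA mean. The log2 difference was -1.41 ± 0.090 (SE), adjusted p = 1.65e-08 before and -1.35 ± 0.053 (SE), adjusted p = 1.64e-11 after induction. The changes with stage were 0.068 ± 0.10 (SE), adjusted p = 0.571 and 0.0072 ± 0.032 (SE), adjusted p = 0.87 in the intramuscular and the subcutaneous cells. Stromal markers were also higher and skeletal muscle markers lower in the subcutaneous libraries, and their part in this difference was not tested.

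The mineralocorticoid receptor gene NR3C2, which binds aldosterone and also cortisol, moved in opposite directions in the 2 cell types. It was 0.748, 0.633, 0.725, 0.902 and 0.932 FPKM in IMPA and 1.93, 2.02, 1.99, 2.23 and 1.92 FPKM in IMA. It was 1.18, 1.27, 1.20, 1.44 and 1.02 FPKM in SPA and 0.526, 0.757, 0.698, 0.536 and 0.658 FPKM in SA. The groups overlapped in no comparison of the same cell type or stage. NR3C2 rose by 0.76 ± 0.059 (SE), adjusted p = 7.58e-07 in the intramuscular cells and fell by 0.44 ± 0.058 (SE), adjusted p = 4.55e-05 in the subcutaneous cells. The difference of the 2 changes, 1.20 ± 0.087 (SE), adjusted p = 1.79e-10, was the largest among the 21 genes. NR3C2 was lower in IMPA than in SPA (log2 difference -0.31 ± 0.066 (SE), adjusted p = 0.000851) and higher in IMA than in SA (0.89 ± 0.062 (SE), adjusted p = 1.21e-08).

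The sex steroid receptor genes were low or near 0. ESR1, the main oestrogen receptor, was 0.545, 1.04, 0.328, 0.685 and 0.229 FPKM in IMPA and 0.547, 0.149, 0.249, 0.271 and 0.289 FPKM in IMA, and it did not pass 0.0569 FPKM in any subcutaneous library. The depots did not overlap at either stage. Its intramuscular stage change was -0.25 ± 0.13 (SE), adjusted p = 0.108. ESR2 was 0.114 ± 0.0745, 0.153 ± 0.0542, 0.231 ± 0.0871 and 0.276 ± 0.211 FPKM in IMPA, IMA, SPA and SA. It was called only between IMPA and SPA, where the groups overlapped (-0.14 ± 0.059 (SE), adjusted p = 0.0429). The progesterone receptor gene PGR stayed at or under 0.0706 FPKM.

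The oestrogen-related receptors are orphan receptors that work with PGC-1 coactivators on mitochondrial genes, and ESRRA and ESRRG differed in opposite ways between the cell types. ESRRA was 17.1, 17.1, 17.8, 16.3 and 17.2 FPKM in IMPA and 16.3, 16.5, 15.8, 15.7 and 18.0 FPKM in IMA. It was 15.3, 13.3, 12.5, 13.2 and 13.2 FPKM in SPA and 10.5, 11.5, 12.2, 9.62 and 9.20 FPKM in SA. The intramuscular libraries all lay above the subcutaneous ones of the same stage, and ESRRA fell between SPA and SA, also without overlap. The log2 changes were -0.052 ± 0.043 (SE), adjusted p = 0.319 in the intramuscular and -0.33 ± 0.075 (SE), adjusted p = 0.00321 in the subcutaneous cells, and they differed by 0.27 ± 0.088 (SE), adjusted p = 0.0121. The depot difference was 0.32 ± 0.049 (SE), adjusted p = 6.71e-05 before and 0.59 ± 0.070 (SE), adjusted p = 3.21e-06 after induction.

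ESRRG was 0.224, 0.236, 0.219, 0.239 and 0.378 FPKM in IMPA and 0.329, 0.427, 0.305, 0.326 and 0.434 FPKM in IMA. It was 1.83, 1.85, 1.86, 2.08 and 1.91 FPKM in SPA and 1.49, 1.58, 1.40, 1.47 and 1.17 FPKM in SA. The subcutaneous libraries lay above all intramuscular ones, with a SPA mean 7.35 times the IMPA mean and an SA mean 3.90 times the IMA mean. The log2 difference was -1.21 ± 0.046 (SE), adjusted p = 1.43e-10 before and -0.83 ± 0.058 (SE), adjusted p = 1.67e-08 after induction. ESRRG fell in the subcutaneous cells (-0.26 ± 0.053 (SE), adjusted p = 0.00164), did not pass in the intramuscular cells (0.12 ± 0.047 (SE), adjusted p = 0.0523), and the changes differed by 0.38 ± 0.071 (SE), adjusted p = 0.000139. ESRRB, the third member, was under the limit for testing, with 0.0530 to 0.0815 FPKM in IMA, 0.0061 to 0.0315 FPKM in IMPA, 0 in every SPA library and at most 0.0139 FPKM in SA.

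The COUP transcription factors NR2F1, NR2F2 and NR2F6 are orphan receptors that often repress, and NR2F2 is known as a restraint on adipogenesis. NR2F2 was 1.33, 1.60, 1.70, 1.43 and 1.91 FPKM in IMPA and 1.11, 1.14, 1.36, 1.28 and 1.03 FPKM in IMA, against 0.771 ± 0.0626 FPKM in SPA and 0.660 ± 0.147 FPKM in SA. IMPA and IMA overlapped, since the lowest IMPA library lay within the range of IMA. NR2F2 fell by 0.25 ± 0.069 (SE), adjusted p = 0.0087 in the intramuscular cells, and its subcutaneous change was -0.10 ± 0.059 (SE), adjusted p = 0.186, which passed without SA replicate 1 (adjusted p = 0.0343). It was higher in the intramuscular cells at both stages, by 0.55 ± 0.064 (SE), adjusted p = 6.35e-06 and 0.40 ± 0.074 (SE), adjusted p = 0.000242, and the second call was lost with quantile normalization (adjusted p = 0.413). NR2F1 was 3.62, 3.63, 3.58, 3.31 and 3.55 FPKM in SPA and 4.82, 4.27, 4.77, 4.61 and 4.82 FPKM in SA, and all SA libraries lay above all SPA libraries. It rose by 0.32 ± 0.046 (SE), adjusted p = 0.000107 and was the receptor gene called higher in SA. In IMPA and IMA it was 3.88 ± 0.562 and 3.77 ± 0.282 FPKM, a change of -0.028 ± 0.077 (SE), adjusted p = 0.773, and the stage changes differed by -0.35 ± 0.089 (SE), adjusted p = 0.00257.

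NR2F6 was 11.98, 12.5, 12.3, 12.1 and 12.1 FPKM in IMPA and 9.89, 9.74, 8.54, 11.8 and 9.62 FPKM in IMA, without overlap, and it fell by 0.28 ± 0.065 (SE), adjusted p = 0.00296. In SPA and SA it was 9.75 ± 0.373 and 9.08 ± 0.540 FPKM, and its change of -0.094 ± 0.047 (SE), adjusted p = 0.112 passed without SA replicate 2, the highest SA library (adjusted p = 0.0272). It was higher in IMPA than in SPA by 0.30 ± 0.036 (SE), adjusted p = 7.92e-06. IMA and SA did not differ past the threshold (adjusted p = 0.171), except without IMA replicate 3 (adjusted p = 0.0458). The difference of stage changes, -0.19 ± 0.080 (SE), adjusted p = 0.0557, passed without IMA replicate 4 (adjusted p = 0.00325) or SPA replicate 4 (adjusted p = 0.046).

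The testicular receptors NR2C1 and NR2C2 were present at even levels. NR2C1 was 7.76 ± 0.274, 7.23 ± 0.386, 8.55 ± 0.587 and 8.34 ± 0.507 FPKM in IMPA, IMA, SPA and SA, and NR2C2 was 4.84 ± 0.388, 4.16 ± 0.685, 4.97 ± 0.118 and 4.58 ± 0.606 FPKM. For both genes the groups overlapped in all 4 comparisons of the same cell type or stage. Neither passed with stage (adjusted p = 0.1 and 0.646 for NR2C1, 0.0829 and 0.221 for NR2C2), although NR2C2 passed without IMA replicate 5 (adjusted p = 0.0234) or with its more abundant transcript alone (adjusted p = 0.0261) in the intramuscular cells, and without SA replicate 4 (adjusted p = 0.035) in the subcutaneous cells. NR2C1 was lower in the intramuscular cells, with log2 differences of -0.12 ± 0.047 (SE), adjusted p = 0.0318 before and -0.18 ± 0.054 (SE), adjusted p = 0.00772 after induction. The first call was lost without IMPA replicate 1 or 5 or SPA replicate 1 or 2 (adjusted p = 0.0591 to 0.0719), and the second with the more abundant transcript alone (adjusted p = 0.172). NR6A1, a receptor of germ cells, was 0.703 ± 0.128, 0.636 ± 0.139, 0.728 ± 0.125 and 0.635 ± 0.0677 FPKM, and HNF4G was 0.142 ± 0.0359, 0.123 ± 0.0402, 0.133 ± 0.0202 and 0.226 ± 0.102 FPKM, with no comparison past the threshold for either gene.

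The NR4A receptors are immediate early genes that act without a ligand, and NR4A1 and NR4A2 were higher in the intramuscular cells. NR4A1 was 1.15, 1.45, 1.51, 1.80 and 1.49 FPKM in IMPA and 1.42, 1.82, 1.47, 2.14 and 1.89 FPKM in IMA. It was 0.215, 0.380, 0.380, 0.556 and 0.530 FPKM in SPA and 0.374, 0.185, 0.267, 0.334 and 0.303 FPKM in SA. The depots did not overlap at either stage, and the log2 difference was 0.81 ± 0.079 (SE), adjusted p = 1.15e-06 before and 1.08 ± 0.075 (SE), adjusted p = 1.58e-08 after induction. The stage changes were 0.14 ± 0.086 (SE), adjusted p = 0.171 and -0.12 ± 0.067 (SE), adjusted p = 0.151. NR4A2 was 1.59, 1.79, 1.47, 1.99 and 0.918 FPKM in IMPA, 1.96, 1.94, 2.60, 2.14 and 1.71 FPKM in IMA, and 0.609 ± 0.109 and 0.697 ± 0.170 FPKM in SPA and SA. It was higher in the intramuscular cells by 0.65 ± 0.10 (SE), adjusted p = 0.000101 before and 0.85 ± 0.088 (SE), adjusted p = 8.08e-07 after induction, again without overlap.

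The NR4A2 change in the intramuscular cells, 0.28 ± 0.11 (SE), adjusted p = 0.0504, lay at the threshold and passed under 8 of 20 alternatives, among them leaving out IMPA replicate 2 or 4 or IMA replicate 5 (adjusted p = 0.0229 to 0.0431), upper-quartile scaling (adjusted p = 0.0372) and quantile normalization (adjusted p = 0.0364). In the subcutaneous cells the change was 0.073 ± 0.071 (SE), adjusted p = 0.413. NR4A3 was 0.328, 0.417, 0.347, 0.456 and 0.351 FPKM in SPA and 0.238, 0.262, 0.111, 0.264 and 0.291 FPKM in SA, and every SA library lay below every SPA library. It fell by 0.16 ± 0.044 (SE), adjusted p = 0.0108. In IMPA and IMA it was 0.272 ± 0.129 and 0.225 ± 0.0543 FPKM, with a change of -0.050 ± 0.064 (SE), adjusted p = 0.531, and the stage changes differed by 0.11 ± 0.082 (SE), adjusted p = 0.26.

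The other 13 receptor genes had a mean under 0.1 FPKM and entered only the fit without a minimum, which called ESRRB in every comparison but SA against SPA and none of the other 12. Beside NR1H4, RORB, PGR and ESRRB, they were the xenobiotic receptors NR1I2 and NR1I3, the liver receptor HNF4A, the steroidogenic and embryonic receptors NR5A1 and NR5A2, the receptors of eye and brain NR2E1 and NR2E3, and NR0B1 and NR0B2, which lack a DNA-binding domain. The highest single value among them was 0.117 FPKM, for NR1H4 in IMPA. They were above 0 in 4 to 16 of the 20 libraries, while 29 of the 45 receptor genes were above 0 in all 20.

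**Figure D3:**
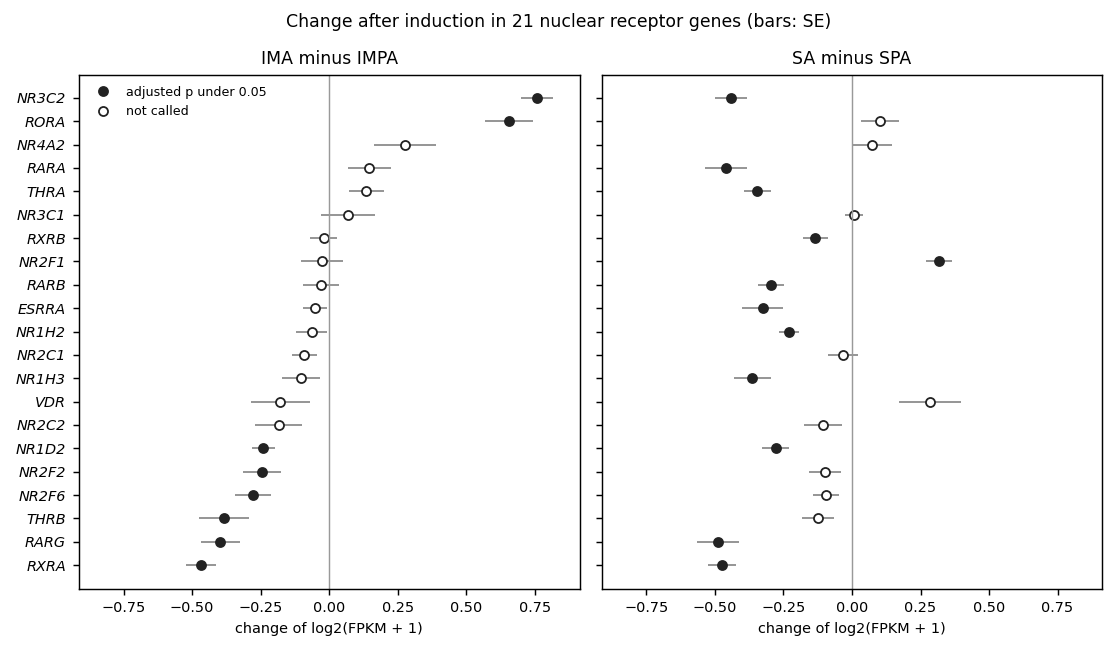
Change of log2(FPKM + 1) after induction for the 21 receptor genes tested, in the intramuscular cells (left, IMA minus IMPA) and the subcutaneous cells (right, SA minus SPA), with bars for the SE and filled points for an adjusted p under 0.05 (limma, n = 5 libraries a group). RXRA, RARG and NR1D2 lie to the left of 0 with filled points in both panels, and NR3C2 is filled on the right of 0 in the intramuscular and on the left in the subcutaneous panel.

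Side by side, the receptor genes called lower after induction in both cell types were RXRA, RARG and NR1D2. The log2 changes of RXRA were -0.47 and -0.47, those of RARG -0.40 and -0.49, and those of NR1D2 -0.24 and -0.28, and the difference of the 2 changes passed for none of the 3 genes (adjusted p = 0.958, adjusted p = 0.488 and adjusted p = 0.637). NR3C2 was called in both cell types with opposite signs. THRA, RARA, RARB, ESRRA, NR1H2 and NR1H3 were called lower in the subcutaneous cells, were not called in the intramuscular cells, and had a difference of changes past the threshold. RORA, called higher in the intramuscular cells alone, and NR2F1, called higher in the subcutaneous cells alone, also had such a difference. With the library-size covariate, the intramuscular calls of RXRA, RARG and RORA were lost (adjusted p = 0.0738, 0.292 and 0.0632). The subcutaneous calls of ESRRA and NR1H3 were lost as well (adjusted p = 0.12 and 0.0508). Between SPA and SA the proliferation score, the mean log2(FPKM + 1) of 8 markers, rose by 1.98 (two-sided exact permutation p = 0.00794, the smallest that 5 against 5 libraries can give) and the stromal score fell by 0.31 (exact p = 0.00794). Between IMPA and IMA the skeletal muscle score rose by 1.32 (exact p = 0.00794) and the proliferation score fell by 0.20 (exact p = 0.0159). The part of these markers in the receptor changes was not tested.

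**Figure D4:**
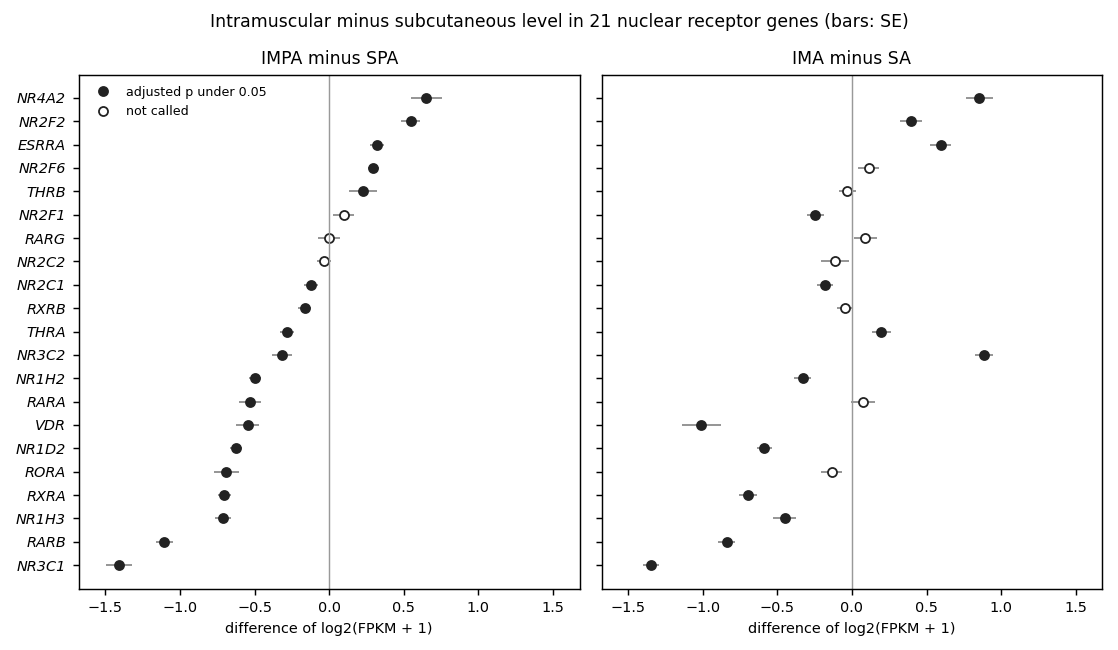
Intramuscular minus subcutaneous level, as a difference of log2(FPKM + 1), of the 21 receptor genes before induction (left, IMPA minus SPA) and after it (right, IMA minus SA), with bars for the SE and filled points for an adjusted p under 0.05 (limma, n = 5 libraries a group). NR3C1 and RARB lie farthest to the left before induction, NR3C1 and VDR after it, and NR4A2, NR2F2 and ESRRA lie to the right of 0 in both panels.

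Between the cell types, NR3C1, RARB, RXRA, VDR, NR1D2, NR1H2, NR1H3 and NR2C1 were called lower in the intramuscular cells at both stages. ESRRA, NR2F2 and NR4A2 were called higher there at both stages. Of these, NR2F2 and NR4A2 reached the minimum of 1 FPKM through their intramuscular groups alone. With the minimum of 0.1 FPKM both were again called at both stages. THRA and NR3C2 were called lower in IMPA than in SPA and higher in IMA than in SA, and IMA and SA overlapped for THRA but not for NR3C2. RORA, RARA and RXRB were called lower in the intramuscular cells before induction and did not pass after it, and NR2F6 and THRB were called higher before induction and did not pass after it. NR2F1 passed after induction, lower in IMA than in SA (-0.25 ± 0.057 (SE), adjusted p = 0.00144), and not before (adjusted p = 0.22). With the library-size covariate, NR3C1 alone stayed called between IMPA and SPA.

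The sums per gene hide transcripts, which StringTie assigned from overlapping reads, so the split within a gene is an estimate and was not tested. For RARA, the transcript XM_018065032.1 went from 4.77 ± 0.692 FPKM in SPA to 2.08 ± 0.182 FPKM in SA, and the groups did not overlap. Its transcript XM_018065034.1 was 2.09 ± 0.399 FPKM in SPA and 2.56 ± 0.524 FPKM in SA, with overlap, so its share of the RARA level went from 30.0% to 53.0%. The second NR2F2 transcript, XM_018066082.1, held 46.8 ± 27.0% (mean ± SD) of the level in IMPA and 47.4 ± 25.3% in IMA. It was at 0 in all 5 SPA libraries and above 0 in 1 SA library.

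NR3C1 had 10 transcripts, of which XM_018050203.1 held 87.7% to 89.1% of the group means. The RXRB level was shared by 2 transcripts, and XM_018038584.1 held 46.7% to 54.1%. The second VDR transcript, XM_018047873.1, averaged 1.45 ± 2.79 FPKM in SPA because 1 library held 6.42 FPKM. NR3C2 was divided over 3 transcripts, and the split varied widely between libraries. XM_013970502.2 held 57.1 ± 36.5% (mean ± SD) of the level in SA, from 0% to 100% in single libraries. It held 27.3 ± 29.6% in SPA and 0.088 ± 0.197% in IMPA.

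**Figure D5:**
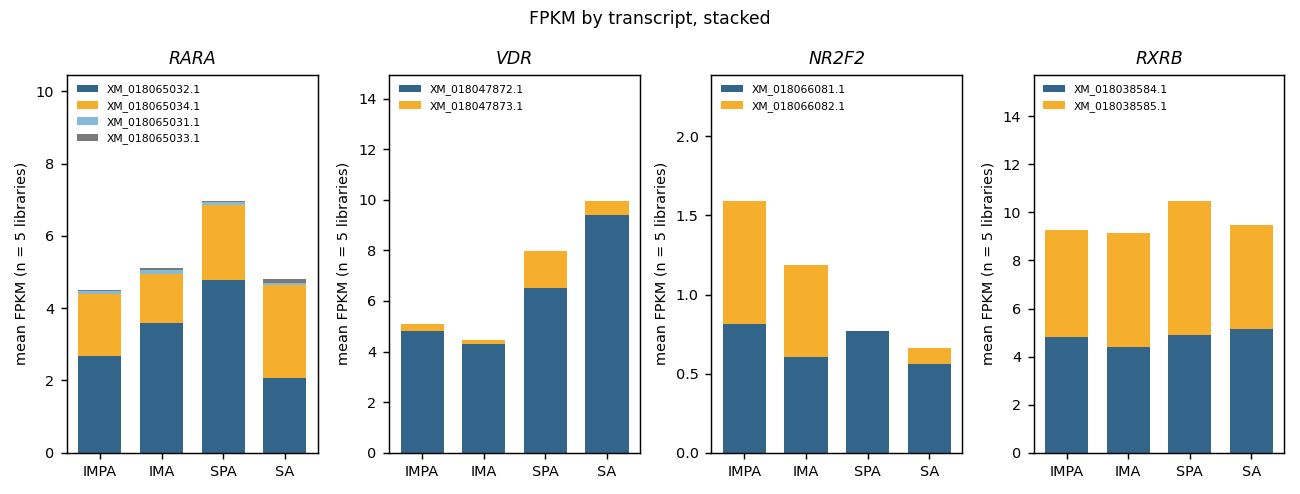
Mean FPKM of the transcripts of RARA, VDR, NR2F2 and RXRB in IMPA, IMA, SPA and SA, stacked to the level of the gene (n = 5 libraries a group), each colour one transcript. In RARA the dark segment shrinks from 4.77 FPKM in SPA to 2.08 FPKM in SA, and in NR2F2 the orange segment is absent from SPA.

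Several receptor genes are neighbours in the goat genome. In the RefSeq annotation of ARS1.2, another release than the ARS1 build that the submitters' notes name, THRA and NR1D1 lay next to each other on chromosome 19 with no annotated gene between them, and RARA lay 6 genes beyond. On chromosome 27, 1 annotated gene lay between NR1D2 and THRB and none between THRB and RARB. On chromosome 11, NR5A1 and NR6A1 were neighbours. THRA, NR1D1 and RARA were all called lower in SA than in SPA, with log2 changes of -0.34, -0.48 and -0.46. The libraries were strand-specific, but the strand setting of the quantification was not given in the sources used here, so reads of THRA and NR1D1 may be shared.

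Genes that work with these receptors were read from the same fits, in which 60.1% of all genes were called between IMA and IMPA (19.9% higher and 40.2% lower) and 52.1% between SA and SPA (26.1% higher and 26.0% lower). The counts of each list stand beside these shares. Of the coactivators and corepressors, 20 were tested. In IMA against IMPA 2 were higher and 9 lower, and in SA against SPA 2 were higher and 8 lower. The acetyltransferase gene CREBBP fell in both cell types (-0.58 ± 0.090 (SE), adjusted p = 1.72e-04 and -0.28 ± 0.064 (SE), adjusted p = 3.13e-03). TBL1XR1, a subunit of the corepressor complex, rose in the intramuscular cells (0.39 ± 0.037 (SE), adjusted p = 4.20e-06).

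Of 10 tested genes for retinoid uptake, storage and turnover, 5 were higher and 2 lower in IMA than in IMPA, and 5 were higher and 1 lower in SA than in SPA. DHRS3, which returns retinal to retinol, was 34.1 ± 9.35, 61.1 ± 7.54, 5.61 ± 0.477 and 32.5 ± 1.35 FPKM in IMPA, IMA, SPA and SA, and rose in both cell types (0.85 ± 0.15 (SE), adjusted p = 4.61e-04 and 2.35 ± 0.053 (SE), adjusted p = 2.85e-11). CRABP2, which carries retinoic acid to its receptors, rose in the intramuscular cells (1.49 ± 0.067 (SE), adjusted p = 6.33e-09) and was 4.70 ± 0.799 and 4.76 ± 0.982 FPKM in SPA and SA. Of 7 tested retinoic acid receptor targets, a list that shares these 2 genes, 6 were higher and 0 lower in IMA, and 4 were higher and 1 lower in SA.

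For the steroid receptors, 10 chaperones were tested, with 3 higher and 4 lower in IMA than in IMPA, and 5 higher and 1 lower in SA than in SPA. FKBP4, a partner of the glucocorticoid receptor with HSP90, fell in the intramuscular cells (-0.16 ± 0.040 (SE), adjusted p = 4.38e-03) and rose in the subcutaneous cells (0.65 ± 0.033 (SE), adjusted p = 9.53e-09). Of 10 glucocorticoid receptor targets tested, 2 were higher and 4 lower in IMA, and 3 were higher and 6 lower in SA. TSC22D3 (GILZ) rose in the subcutaneous cells (0.93 ± 0.075 (SE), adjusted p = 6.51e-07), where DUSP1 (-0.38 ± 0.036 (SE), adjusted p = 2.30e-06) and KLF9 (-0.54 ± 0.051 (SE), adjusted p = 2.64e-06) fell. Of 9 genes for steroid, thyroid hormone, vitamin D and oxysterol handling, 4 were higher and 5 lower in IMA, and 2 were higher and 4 lower in SA. HSD11B1, which regenerates cortisol, rose in the intramuscular cells (0.74 ± 0.17 (SE), adjusted p = 2.86e-03) and fell in the subcutaneous cells (-0.53 ± 0.058 (SE), adjusted p = 9.55e-06).

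Of 11 tested PPAR targets, 8 were higher and 0 lower in IMA than in IMPA, and 5 were higher and 3 lower in SA than in SPA. PDK4, which spares glucose and also stands in the glucocorticoid and retinoic acid lists, rose in both cell types (2.15 ± 0.092 (SE), adjusted p = 3.75e-09 and 1.02 ± 0.052 (SE), adjusted p = 1.01e-08), as did the lipid droplet coat gene PLIN2 (1.74 ± 0.16 (SE), adjusted p = 2.48e-06 and 0.62 ± 0.036 (SE), adjusted p = 2.70e-08). ACSL1, which activates fatty acids, rose in the intramuscular cells (0.77 ± 0.067 (SE), adjusted p = 2.02e-06) and fell in the subcutaneous cells (-0.77 ± 0.045 (SE), adjusted p = 3.21e-08). Of 7 tested LXR targets, 3 were higher and 3 lower in IMA, and 1 was higher and 4 lower in SA. The desaturase gene SCD fell in both cell types (-0.32 ± 0.064 (SE), adjusted p = 9.75e-04 and -1.01 ± 0.090 (SE), adjusted p = 1.63e-06), and the cholesterol exporter ABCA1 rose in the intramuscular cells (1.19 ± 0.14 (SE), adjusted p = 1.72e-05).

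Of 14 tested circadian clock genes, 0 were higher and 11 lower in SA than in SPA, and 5 were higher and 3 lower in IMA than in IMPA. The median log2 change was -0.38 in the subcutaneous and -0.030 in the intramuscular cells, beside -0.0091 and -0.085 for all genes. ARNTL, the clock activator that REV-ERB receptors repress, was 3.86 ± 0.157, 3.71 ± 0.430, 17.2 ± 0.496 and 11.2 ± 0.984 FPKM in IMPA, IMA, SPA and SA, and fell in the subcutaneous cells (-0.58 ± 0.053 (SE), adjusted p = 2.20e-06). TEF (-0.57 ± 0.049 (SE), adjusted p = 1.22e-06) and NFIL3 (-0.49 ± 0.048 (SE), adjusted p = 3.32e-06) fell there too. Of 16 tested immediate early genes, the class to which the NR4A receptors belong, 4 were higher and 6 lower in IMA, and 2 were higher and 8 lower in SA. EGR1 fell in both cell types (-1.33 ± 0.12 (SE), adjusted p = 3.63e-06 and -1.89 ± 0.067 (SE), adjusted p = 4.30e-10).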

How the data were processed

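RNA from 20 libraries of goat cells, 5 for each of IMPA, IMA, SPA and SA, was sequenced by the authors from strand-specific, dUTP-marked libraries. The authors aligned reads to the goat genome with HISAT2 and deposited FPKM values per transcript from StringTie and Ballgown. The submitters' processing notes name HISAT2 2.0.4, StringTie 1.3.1, GATK 2.6-5 and the build ARS1. FPKM is scaled to the mapped fragments of a library and to the transcript's length, so a few very abundant transcripts change the values of all others. The most abundant lncRNA held 19.95% to 29.07% of a library's FPKM sum. The tables of lncRNAs were used only for library sums.

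FPKM values of the mRNA table were summed per gene symbol (6 of 20587 symbols hold 2 gene identifiers) and used as log2(FPKM + 1) without further scaling. The 11432 genes whose mean over the 20 libraries reached 1 FPKM were tested. Each pair of groups was fitted on its 10 libraries, and the difference of stage changes on all 20, by the moderated test of limma 3.58.1 with a variance trend (R 4.3.3). P values were two-sided and adjusted by the Benjamini-Hochberg method over all genes tested, and a gene was called at an adjusted p under 0.05. Adjusted p values in the text come from limma. Marker scores, means of log2(FPKM + 1) over a list, were compared by a two-sided exact permutation test (252 ways to divide 10 libraries, smallest possible p 0.00794). The steps were tested on simulated data. Sums, scores and figures were made in Python 3.11.15 with numpy 2.4.6, pandas 2.3.3, scipy 1.17.1 and matplotlib 3.10.9.

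Groups followed the labelled cell type and stage. The members and the lists of markers, partners and targets were chosen with earlier results of these data known. Receptor genes with a mean of at least 1 FPKM were named with group values, called ones library by library, and the others by their ranges or group values. From each list of partners and targets, at most 4 genes were named, those with the smallest p in either stage comparison. Genes of these lists without a row were not analysed here. The labels tie no replicate number to a goat, and libraries were not paired.

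The results were recomputed with a lower limit of 0.1 FPKM, without a limit, with a pseudocount of 0.1, with 3 other scalings (the same mRNA sum in every library, upper-quartile and quantile), without the variance trend, by an ordinary linear model with the covariate of Ballgown for library size, with all 4 groups fitted together, with a block for the replicate number, with the most abundant transcript of a gene alone and over single transcripts. Libraries were also left out, each one in turn and SPA replicate 1 and SA replicate 5 together. By the study's lists, that pair lost a smaller share of reads in filtering than any other subcutaneous library. The other subcutaneous libraries lost a larger share than any intramuscular library, and the part of this loss in the results was not tested. All 45 members matched the RefSeq table of ARS1.2 by gene identifier, and it was used only for neighbouring genes. Sequences of proteins and promoters were not used here.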

Additional observations from a re-analysis of the deposited data

Results flagged for a closer look

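In 12 of the 128 groups of 5 libraries examined over 32 receptor genes, the highest or lowest library stood farther from the others than Dixon's 95% limit allows. Chance gives about 1 in 20 such groups. RARB was 7.33 FPKM in IMPA5, the highest of its group, beside 6.29 in the next library, and 5.32 FPKM in IMA3, the lowest, beside 6.37. RARG was 7.42 FPKM in SPA4 beside 6.44, and RORA was 4.72 FPKM in SPA5, the lowest of its group, beside 5.27. RXRG was 0.0467 FPKM in SPA1 and 0.0355 FPKM in SA4, in groups whose other libraries were at 0. NR2F1 was 3.31 FPKM in SPA4, the lowest of its group, beside 3.55, and NR2F6 was 10.03 FPKM in SA2 beside 8.93. ESRRG was 0.378 FPKM in IMPA5 beside 0.239, and NR4A3 was 0.493 FPKM in IMPA4 beside 0.245. NR6A1 was 0.923 FPKM in IMPA4 beside 0.697 and 0.880 FPKM in IMA1 beside 0.607.

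The intramuscular and the subcutaneous log2 change after induction differed, by the interaction term in limma, for 13 of 32 receptor genes. This count belongs to the minimum mean of 0.1 FPKM, where 51.8% of all genes passed, and it includes RXRG. The change was more positive in the intramuscular cells for NR3C2 (1.20, adjusted p = 1.79e-10), RXRG (0.66), RARA (0.61, adjusted p = 0.000116), RORA (0.55, adjusted p = 0.00029) and THRA (0.48, adjusted p = 2.72e-05). The same held for NR1D1 (0.43, adjusted p = 0.000103), ESRRG (0.38, adjusted p = 0.000139), ESRRA (0.27, adjusted p = 0.0121), RARB (0.26, adjusted p = 0.00795), NR1H3 (0.26, adjusted p = 0.0324) and NR1H2 (0.17, adjusted p = 0.0411). It was more negative in the intramuscular cells for VDR (-0.46, adjusted p = 0.0213) and NR2F1 (-0.35, adjusted p = 0.00257). The values of RXRG, NR1D1 and ESRRG come from the fit with a minimum mean of 0.1 FPKM. RXRG passed that minimum through its intramuscular groups alone, so no p-value is given for it.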

How the results depend on the processing

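Over 2553 receptor values recomputed under the alternatives, 2398 kept their side of the threshold, of which 64, not called either way, changed sign, while 98 were no longer past it, 50 came past it and 7 values called in one of the fits changed sign, and 23 of 62 calls were kept under every alternative. With the library-size covariate in an ordinary linear model, the receptor genes called numbered 3 for IMA against IMPA, 1 for IMPA against SPA, 9 for IMA against SA and 5 for the difference of stage changes, beside 12.2%, 8.88%, 54.1% and 33.3% of all genes. The fit over single transcripts gave 6 for the difference of stage changes, beside 30.4% of all transcripts tested. Under that covariate the IMPA against SPA difference turned for NR4A2 (-0.043) and THRB (-1.50), and the difference of stage changes for NR1H2 (-0.11), NR1H3 (-0.057) and VDR (0.45). The SA against SPA change of RXRB turned to 0.049 with the most abundant transcript alone and over single transcripts. The causes were not tested. Leaving out 1 library gave 8 to 10, 11 to 13, 16 to 18, 14 to 15 and 8 to 11 called receptor genes for IMA against IMPA, SA against SPA, IMPA against SPA, IMA against SA and the difference of stage changes. The shares over all genes were 55.7% to 60.2%, 47.6% to 51.4%, 72.9% to 74.7%, 69.7% to 71.6% and 53.0% to 55.8%. Without SPA replicate 1 and SA replicate 5 together, 7 were called for the difference of stage changes, beside 54.4% of all genes. With the replicate number as a block, the counts were 9, 11, 16, 14 and 11, beside 59.7%, 49.0%, 74.6%, 70.5% and 55.1% of all genes. The block gave the NR4A2 change between IMPA and IMA (adjusted p = 0.0258) and the NR2F6 difference of changes (adjusted p = 0.0456), and lost RXRB between SPA and SA (adjusted p = 0.0605) and NR2C1 (adjusted p = 0.0623) and THRB (adjusted p = 0.0594) between IMPA and SPA. The numbers name no shared goat. The deviations of same-numbered libraries from their group means correlated at r = 0.042 to 0.121 in the IMPA and IMA pairs and -0.242 to 0.122 in the SPA and SA pairs, and a library's best match was its own number for 4 of 5 IMPA and IMA pairs and 0 of 5 SPA and SA pairs, a hint from the data and not from the design.

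At a group mean of at least 0.1 FPKM, 32 receptor genes counted as expressed in IMPA and 30 in SA, and at 5 FPKM 12 did in IMA. Of the receptor calls between IMA and IMPA, 2 of 8 were higher as deposited, 4 of 10 with upper-quartile scaling and 5 of 11 with quantile normalization. The shares of higher calls over all genes were 33.1%, 39.7% and 42.3%. Over all genes, 50.1% of the SA against SPA calls were higher as deposited and 36.5% with the same mRNA sum in every library, and 37.5% of the calls on the difference of stage changes were positive as deposited and 48.4% with quantile normalization. Between IMPA and SPA, 56.3% of the calls over all genes were higher as deposited and 46.4% with quantile normalization. The endothelial score difference between SA and SPA was -0.046 (exact permutation p = 0.0238) with all libraries. It was -0.037 (exact permutation p = 0.0857) without SPA replicate 1 and SA replicate 5. Read numbers cannot be had from FPKM values, so no limit is given for receptor genes listed at 0.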
